A study of Homo sapiens with 6 samples.

Results

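The mitochondrial ribosomal protein genes were examined in 76N cells given a control siRNA or an siRNA against Ecd. They were taken as all probe sets whose only gene symbol starts with MRPL or MRPS followed by a number, without pseudogenes and antisense genes. That rule found 140 of the 54675 probe sets on the array, and they read 75 of the 19775 genes that have a probe set with 1 symbol. By symbol, 48 genes belong to the large subunit (MRPL) and 27 to the small subunit (MRPS). The rule used names only and no measured value, but the set was chosen with earlier results of these data known.

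76N is a line of normal mammary epithelial cells from a human donor, grown here in DFCI-1 medium. Per the labels, 3 cultures were transfected with control siRNA and 3 with Ecd siRNA, each called a biological replicate, and total RNA of each was hybridised to 1 Affymetrix array. The siRNA targets ECD, named after the fly gene ecdysoneless. All cultures were siRNA-treated, so no array shows untreated cells, and 1 cell line limits the comparison to that line. The question put to the arrays was which transcripts differ between cells given Ecd siRNA and cells given control siRNA.

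Mitochondria have a ribosome of their own, which translates the few proteins encoded by mitochondrial DNA, all of them subunits of the oxidative phosphorylation complexes. Its RNAs are made inside the organelle, but its proteins are encoded by the nuclear MRPL and MRPS genes, made on cytosolic ribosomes and imported. The small subunit decodes the messenger RNA. The large subunit forms the peptide bond and holds the exit tunnel through which the new protein leaves, close to the inner membrane. Many of these proteins have relatives in bacterial ribosomes, and others are found in the mitochondrial ribosome alone.

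The knockdown and the cell type were checked on the same arrays. ECD was lower in every Ecd siRNA culture, with 55.9% of the control signal left (577.1 ± 30.4 against 1032 ± 38.9, SD, n = 3 each; limma adjusted p = 0.000172). A two-sided exact permutation test gave ECD p = 0.1, and no smaller p is possible with groups of 3. The basal epithelial keratin genes KRT5 and KRT14 had lowest signals of 14717.5 and 19871.6 over the 6 arrays, and 1 of the 6 blood and endothelial markers on the array lay above the filter described below. Of 12 fibroblast markers 8 were tested and 5 of these rose by the threshold given below, against 10.1% of all genes tested. COL3A1, LUM, PDGFRA and PDGFRB lay under the filter. The summed signal of the list was 10449 to 11054 on the control and 19087 to 21406 on the Ecd siRNA arrays. The part of these markers in the results below was not tested. Summed basal markers were 79089 to 87322 and 85448 to 94204, and luminal markers 13208 to 13728 and 12657 to 13507. Of 6 basal markers tested 2 rose (CDH3 and ITGB4). Of 6 luminal markers tested 1 rose (GATA3) and 1 fell (KRT18), where 11.0% of all genes tested fell. The 3′ to 5′ signal ratios of GAPDH were 0.974 to 0.980 in control and 0.974 to 1.003 in Ecd siRNA arrays, and those of ACTB 1.07 to 1.11 and 1.07 to 1.16.

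Transcripts of the mitochondrial ribosome were lower after Ecd siRNA across both subunits, by amounts that were modest for each gene. Of the 75 genes, 31 fell, 0 rose and 44 did not pass the threshold. The background in the same fit was 11.0% of 14603 tested genes called lower, 10.1% called higher and 21.1% called in either direction. A gene is said to have fallen or risen where limma's p, adjusted by the Benjamini-Hochberg method over all 14603 genes, was under 0.05. The genes that fell kept between 56.4% and 85.1% of their control signal, with a median of 73.2%. The median log2 change of all 75 genes was -0.28, against 0.008 for all genes tested. Changes are on the scale log2(signal + 16), Ecd siRNA minus control, and each gene was read by its brightest probe set.

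The direction was shared more widely than the calls. In 67 of the 75 genes the Ecd siRNA mean was lower on the log2 scale, which was true of 48.9% of all genes tested. In 44 of the 75 the 3 Ecd siRNA arrays lay wholly below the 3 control arrays, as they did in 18.3% of all genes tested; groups without overlap in either direction made up 36.4% of all genes. Among the 44 genes that did not pass, 36 had negative and 8 positive changes, and 13 had no overlap between the groups, all of them lower. No gene reached an unadjusted limma p under 0.05 in the upward direction (0 of 75). The 75 probe sets used had mean signals of 576 to 6321, well over the filter signal of 84.6, and all 75 genes were tested. The 75 genes lie on 21 chromosomes, and those that fell on 17 of these.

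**Figure D1:**
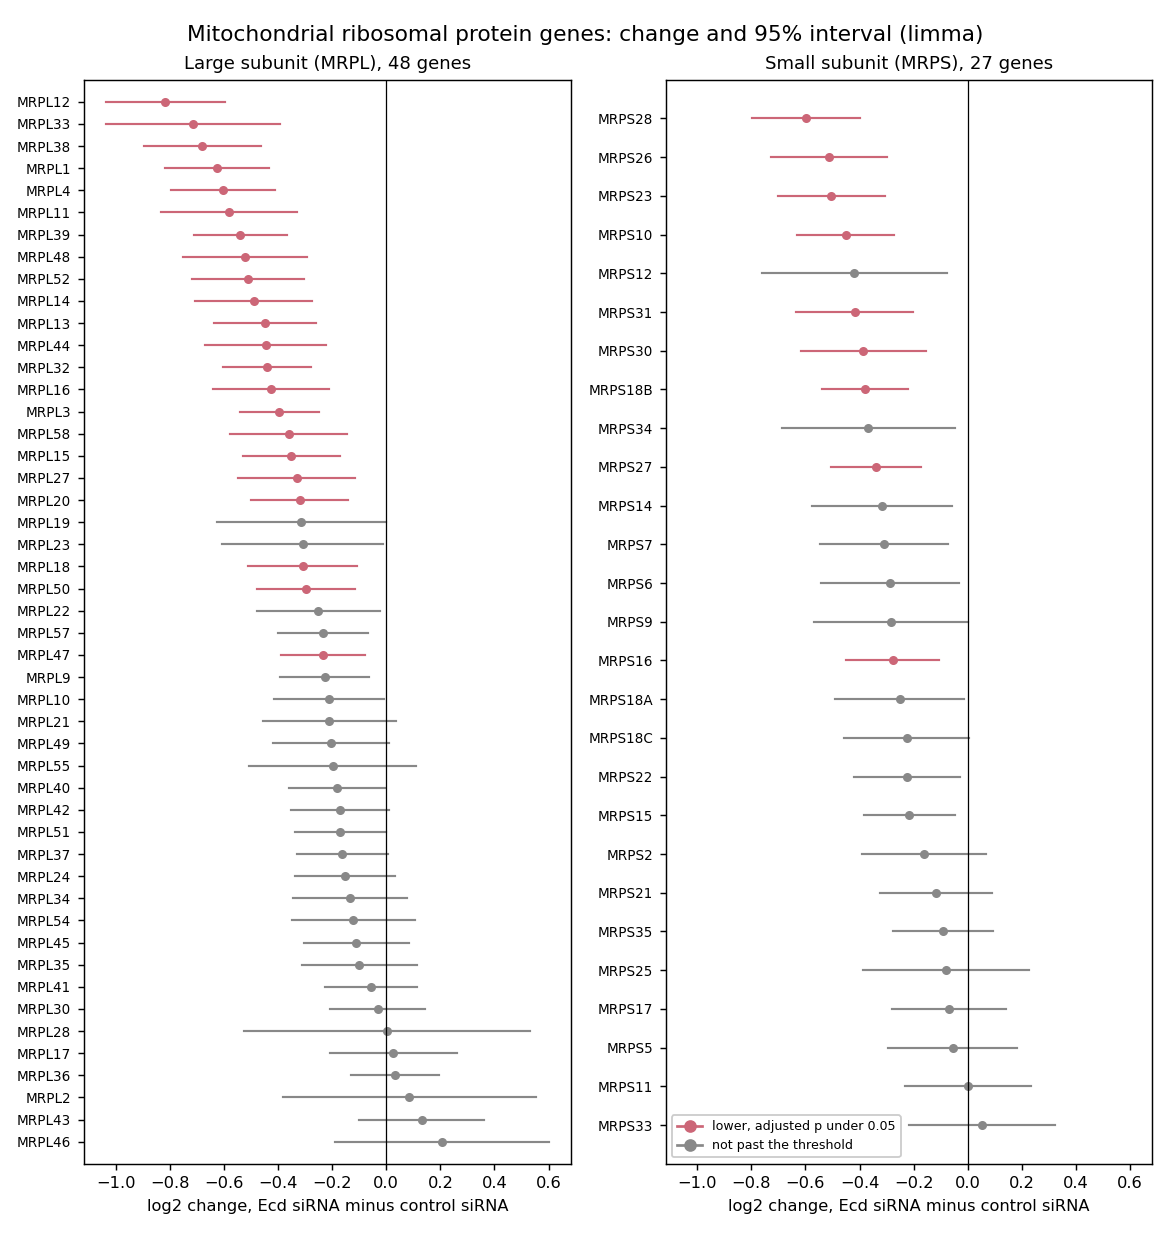
Log2 change of each mitochondrial ribosomal protein gene after Ecd siRNA (horizontal axis, Ecd siRNA minus control), with large subunit genes in the left panel and small subunit genes in the right panel. Points are limma estimates and lines their 95% intervals; red marks the 31 genes called lower and grey the 44 not past the threshold, and the estimates run from -0.82 for MRPL12 to 0.20 for MRPL46.

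Of the large subunit genes, 22 of 48 fell (45.8%) with a median log2 change of -0.24. MRPL12 changed most. It encodes the protein of the flexible stalk that brings translation factors to the ribosome. Its signals were 1469.6, 1668 and 1606.2 on the control arrays and 871.7, 986.7 and 819.4 on the Ecd siRNA arrays. The groups lay far apart, and 56.4% of the control signal was left (log2 change -0.82, SE 0.10, limma adjusted p = 0.000222).

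The stalks hold further proteins of the large subunit. MRPL11, whose protein sits at the base of the MRPL12 stalk, had signals of 1410.5, 1115.2 and 1282 in control and 783.4, 935.9 and 805 in Ecd siRNA cultures, a log2 change of -0.58 (SE 0.11, limma adjusted p = 0.00431). MRPL1, the protein of the opposite L1 stalk, went from 1708.4, 1618.3 and 1707.3 to 1171.9, 1064.3 and 1016.5, or -0.62 (SE 0.09, limma adjusted p = 0.000545). In both genes every Ecd siRNA array was under every control array. MRPL10, which anchors MRPL12 to the ribosome, was at -0.21 and did not pass (95% interval -0.42 to -0.007, limma adjusted p = 0.141). Its first Ecd siRNA culture, at 1804.9, lay among the control values of 1799.7 to 1882.4.

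The next genes by adjusted p encode proteins with different places in the large subunit. MRPL4, which helps to line the tunnel, gave 1608.7, 1672.1 and 1537.8 on control and 1015.3, 1130.2 and 1015 on Ecd siRNA arrays (log2 change -0.60, limma adjusted p = 0.000669). MRPL3, whose protein reaches towards the peptidyl transferase centre, gave 6928.4, 7048.5 and 7578.7 against 5691.3, 5232.1 and 5448.8 (-0.40, limma adjusted p = 0.0017). MRPL32, a protein matured by the inner membrane AAA protease, gave 3762.9, 3608.6 and 4142.6 against 2861.7, 2750.1 and 2843.5 (-0.44, limma adjusted p = 0.00176). None of these 3 genes had overlapping groups, and their replicates lay close together. MRPL22 (-0.25), MRPL23 (-0.31) and MRPL24 (-0.15), of proteins along the tunnel or at its exit, had overlapping groups and did not pass (limma adjusted p = 0.114, 0.138 and 0.249). MRPL2, whose protein lies near the catalytic centre, was at 0.09 and did not pass either. These genes are examples and not all those of their regions. Of other large subunit genes, MRPL16 (-0.43), MRPL27 (-0.33) and MRPL47 (-0.23) fell without overlap (limma adjusted p = 0.00982, 0.0352 and 0.0386).

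Several large subunit proteins exist in mitochondria and not in bacteria. MRPL38, a protein of the central protuberance, gave 1191, 1230.9 and 1109.7 on control and 773.1, 667.5 and 748.7 on Ecd siRNA arrays, with 62.0% of the control signal left (log2 change -0.68, SE 0.10, limma adjusted p = 0.00067). MRPL39 gave 2940.8, 2743.5 and 3196.3 against 1991.3, 2037 and 2059.2 (-0.54, limma adjusted p = 0.00072), and its Ecd siRNA replicates were nearly alike. MRPL52, a further protein of the protuberance, gave 2097.8, 2563.8 and 2142.5 against 1607.8, 1628.9 and 1508.7 (-0.51, limma adjusted p = 0.00292). Here too the groups were separate. MRPL33, a small protein of bacterial type chosen for mention after its values were seen, had a log2 change of -0.71 with widely spread control signals: 6008.4, 4085.1 and 6549.9 against 3242.3, 3244.8 and 3445.9. Its limma adjusted p was 0.00542, and all 3 control signals stayed above the Ecd siRNA ones.

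**Figure D2:**
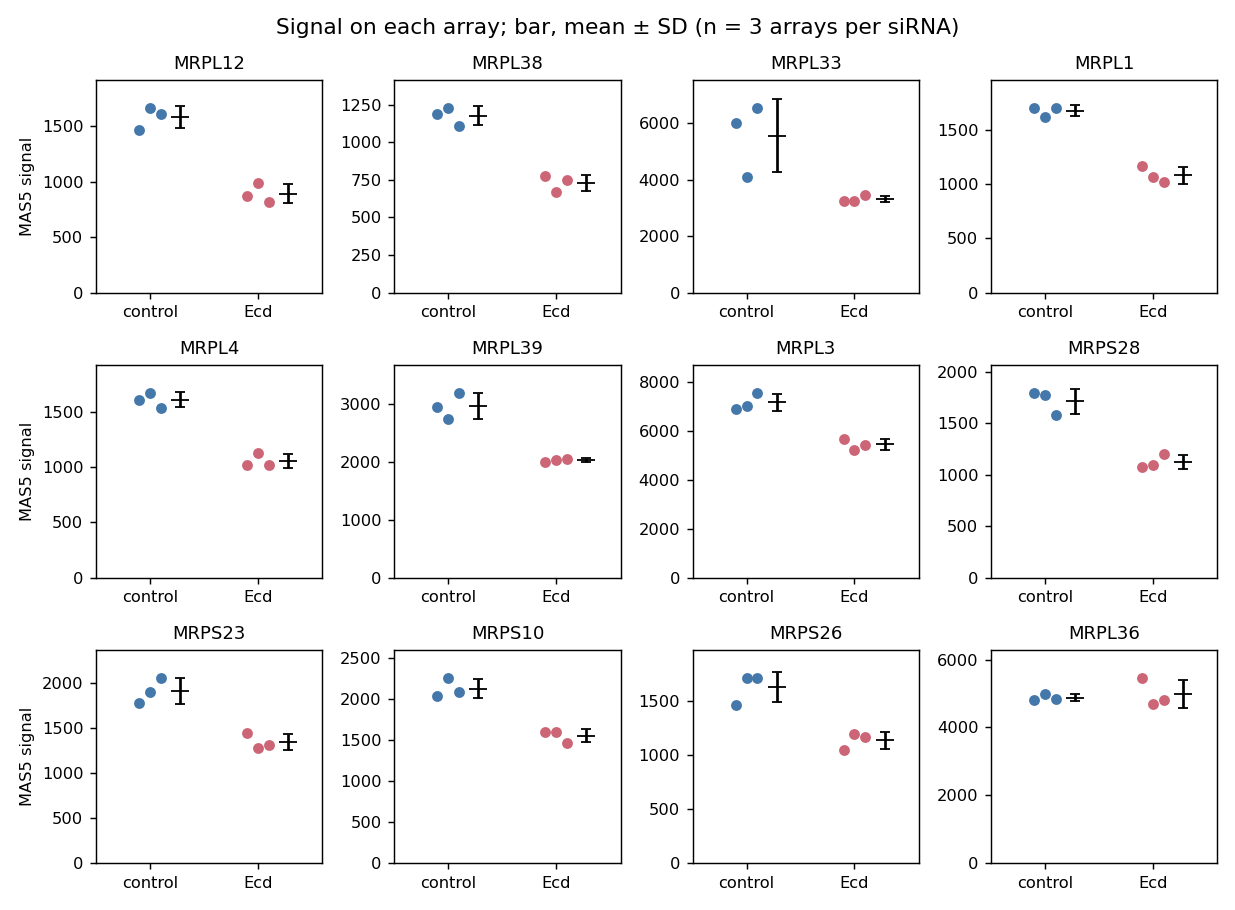
MAS5 signal on each array (vertical axis, linear, from 0) for 12 mitochondrial ribosomal protein genes, with 3 control siRNA arrays in blue and 3 Ecd siRNA arrays in red; the bar beside them is the mean with SD. In 11 genes every Ecd siRNA array lies under every control array, and MRPL36, shown as a gene that did not pass, has overlapping groups (4799.4 to 4997.4 and 4701.3 to 5466).

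Of the small subunit genes, 9 of 27 fell (33.3%) and the median log2 change was -0.28. MRPS28 changed most, with signals of 1796.8, 1770.9 and 1575.1 in control and 1077.6, 1098.3 and 1204.3 in Ecd siRNA cultures (log2 change -0.60, SE 0.09, limma adjusted p = 0.000897). MRPS26, a mitochondria-specific protein, gave 1463.9, 1708.6 and 1713.9 against 1047.8, 1192.2 and 1167 (-0.51, limma adjusted p = 0.00345). MRPS23, also without a bacterial relative, gave 1780.6, 1905.9 and 2061.9 against 1448.1, 1279.7 and 1308.3 (-0.50, limma adjusted p = 0.00245). The groups were apart in all 3.

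MRPS10, a protein of the subunit's head with a relative in every ribosome, gave 2040.4, 2258.6 and 2079.1 against 1595, 1595.7 and 1459 (log2 change -0.45, limma adjusted p = 0.00265). MRPS31 gave 955.5, 1039.3 and 1046.1 against 792.6, 694.5 and 780.4 (-0.42, limma adjusted p = 0.0116). MRPS27, which has pentatricopeptide repeats of the kind that bind RNA, gave 2301.5, 2277.8 and 2417.1 against 1932.8, 1769.5 and 1814.4 (-0.34, limma adjusted p = 0.00847). In each of these genes the highest Ecd siRNA signal was under the lowest control signal. MRPS16, the remaining small subunit gene that fell beside MRPS18B and MRPS30, was at -0.28. MRPS12, whose protein lies at the decoding centre, was at -0.42 but did not pass (limma adjusted p = 0.0812), with control signals spread from 1511.8 to 2231.7.

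The paralogs MRPS18A, MRPS18B and MRPS18C all descend from the bacterial protein S18 but occupy different places in the ribosome. MRPS18B fell, from 2254.9, 2267 and 2295.6 to 1711.9, 1722.9 and 1793 (log2 change -0.38, SE 0.07, limma adjusted p = 0.00339), and its replicates lay close together in both groups. MRPS18A, whose protein belongs to the large subunit in structures despite its symbol, went from 994.8, 1019.9 and 959.6 to 724.8, 921.9 and 855.9 (-0.25, 95% interval -0.49 to -0.01, limma adjusted p = 0.132). MRPS18C went from 1591, 1813.5 and 1601.4 to 1513.4, 1236.1 and 1538.5 (-0.23, 95% interval -0.46 to 0.006, limma adjusted p = 0.166). Neither passed the threshold, although in these probe sets their groups did not overlap and both intervals include the value of MRPS18B. A second, dimmer probe set of MRPS18A had overlapping groups, with 721, 806.9 and 741.7 in control and 898.7, 717 and 604.7 in Ecd siRNA cultures. Its log2 change was -0.05 (limma adjusted p = 0.87 with each probe set on its own). The differences between the paralogs were not tested.

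Large and small subunit genes had medians of -0.24 and -0.28, and the shares called lower were 45.8% and 33.3%, against 11.0% of all genes tested. No test of the difference between the subunits was made, since genes of one ribosome are not replicates. With MRPS30 and MRPS18A counted as large subunit proteins, as structures place them, the medians were -0.25 over 50 genes and -0.28 over 25. On the 3 Ecd siRNA arrays the median large subunit gene lay 0.17, 0.33 and 0.29 under the control mean on the log2 scale, and the median small subunit gene 0.24, 0.27 and 0.34. Ecd siRNA replicate 1 was thus nearest to the controls, with 49 of 75 genes under all 3 control arrays, against 61 and 62 for replicates 2 and 3. The control arrays themselves had medians of -0.02, 0.06 and -0.02 over the 75 genes.

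The systematic ribosome names listed among RefSeq synonyms sort the proteins by ancestry. Names starting with u mark proteins of all ribosomes, b those shared with bacteria and m those of mitochondria, and 74 of the 75 genes had such a name. In the u class 11 of 26 genes fell (42.3%, median log2 change -0.31). In the b class 6 of 18 fell (33.3%, -0.23) and in the m class 13 of 30 (43.3%, -0.24), against 11.0% of all genes tested. Each class was mostly negative, with 24 of 26, 15 of 18 and 27 of 30 genes under 0, against 48.9% of all genes tested. The classes were not tested against each other.

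Genes at the other end of the range did not differ detectably. MRPL36, a small bacterial-type protein, had signals of 4799.4, 4997.4 and 4839.4 in control and 5466, 4701.3 and 4822.9 in Ecd siRNA cultures (log2 change 0.03, 95% interval -0.13 to 0.19). MRPS11, a small subunit protein with relatives in all ribosomes, was at 0.0009 (interval -0.23 to 0.23), and MRPL30 at -0.03 (interval -0.21 to 0.14). These 3 genes were named after their values were seen. The value of MRPL30 is that of its brightest probe set, and its second brightest gave 1893.6, 1566.6 and 1882.2 in control and 828.8, 1458 and 1458.1 in Ecd siRNA cultures (-0.55, SE 0.20, limma adjusted p = 0.0899 with each probe set on its own). MRPL28 (interval -0.53 to 0.53) and MRPL2 (-0.38 to 0.55) had wider intervals, and 1 Ecd siRNA array of MRPL28 (730) and 1 control array of MRPL2 (527.8) had the lowest signals of their genes. MRPL46 had the largest positive change, 0.20 (interval -0.19 to 0.60), and its groups overlapped.

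Most genes with several probe sets had changes of the same sign in all of them, though not always of like size. Of 28 genes with more than 1 probe set above the filter, 17 had all of them negative, 1 had all positive and 10 had both signs. Tested on their own, 38 of 123 probe sets above the filter fell and 1 rose, where 8.62% of 27009 probe sets of all genes fell and 8.30% rose. The 3 probe sets of MRPS10 gave -0.45, -0.43 and -0.41 and each fell. Both probe sets of MRPS18B fell (-0.38 and -0.36), as did both above the filter for MRPS31 (-0.42 and -0.56) and for MRPL50 (-0.30 and -0.39). In MRPL44, by contrast, the brightest fell (-0.45) and the other did not pass (-0.13).

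In 3 genes with at least 1 called probe set the probe sets went both ways. MRPS30, whose protein is part of the large subunit in structures, fell in its brightest probe set, from 2218.9, 1847.3 and 2441.8 to 1733.1, 1604.6 and 1601.3 (log2 change -0.39, limma adjusted p = 0.0338 with each probe set on its own). Another of its probe sets rose, from 548.4, 557.8 and 581.9 to 771.3, 692.5 and 742.8 (0.38, limma adjusted p = 0.0312), and the third was at 0.09. The fall of MRPS30 therefore holds for 1 probe set of 3, and averaging its probe sets gave 0.03. MRPS30 also lost its call when any of control replicates 1 and 3 and Ecd siRNA replicates 2 and 3 was left out (adjusted p 0.0656 to 0.0891). The call was lost too with arrays set to a common median (limma adjusted p = 0.0633) and without the intensity trend (limma adjusted p = 0.0858). MRPS23 had a dim second probe set that went up, from 125 to 214.5 in control to 228.5 to 268.8 in Ecd siRNA cultures (0.51, limma adjusted p = 0.141), and averaging both gave 0.002. MRPS15, a small subunit protein of all ribosomes, fell in its second brightest probe set (-0.43, limma adjusted p = 0.00931) but not in its brightest (-0.22, adjusted p = 0.0868, again with each probe set on its own), while a dim one was at 0.36. MRPL35 was not called in its brightest probe set (-0.10), and a dimmer one fell (-0.71). With all probe sets of a gene averaged, those under the filter included, 20 of the 75 genes fell. MRPL12 (-0.43, limma adjusted p = 0.057), MRPL38 (-0.18), MRPL39 (-0.15), MRPS26 (-0.23), MRPS27 (-0.08) and MRPS31 (-0.39) then missed the threshold. MRPL4 missed it where probe sets without the suffix _s or _x, which marks possible matches to several transcripts, were preferred (-0.37, limma adjusted p = 0.146).

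**Figure D3:**
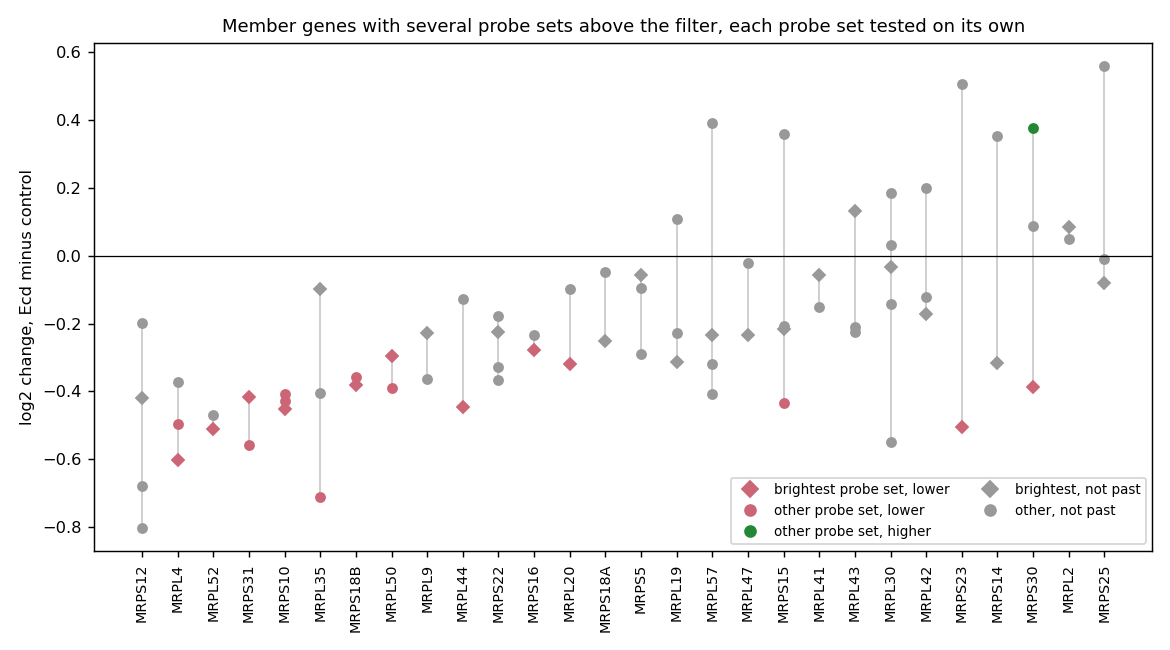
Log2 change (vertical axis, Ecd siRNA minus control) of every probe set above the filter for the 28 mitochondrial ribosomal protein genes that have several, each tested on its own. Diamonds are the brightest probe set of a gene, circles the others, and colour marks those called lower (red) or higher (green); the 3 probe sets of MRPS10 sit together near -0.4, and those of MRPS30 lie on both sides of 0.

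Other genes of mitochondrial translation were read from lists written from textbook knowledge. Among proteins of the ribosome with other symbols 0 of 4 tested passed in either direction (limma), with GADD45GIP1 of the large subunit at -0.38 (adjusted p = 0.0807) and PTCD3 of the small subunit at 0.25 (adjusted p = 0.203). At an unadjusted p under 0.05 the list held 1 gene, GADD45GIP1, which was lower. Of 26 tested genes of ribosome assembly and ribosomal RNA modification, 7 fell (26.9%) and 1 rose (3.85%), with a median of -0.25. Over all genes tested 11.0% fell and 10.1% rose. C1QBP, a matrix protein that binds ribosome and RNA, fell from 8257 ± 796 to 4968 ± 825 (SD, n = 3 each; -0.74), the 2′-O-methyltransferase gene MRM2 was at -0.44 and FASTKD2, which acts on the large subunit's RNA, at -0.34. With its probe sets averaged FASTKD2 was at 0.33 (limma adjusted p = 0.274). The 1 that rose was NGRN (0.33), named after its value was seen. The count of falls was 4 without control replicate 1 or 3 or Ecd siRNA replicate 3, and the count of rises was 0 without control replicate 1 or 2 or Ecd siRNA replicate 3 and 2 without control replicate 3.

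Translation factors fell in 6 of 15 tested genes (40%), against 11.0% of all genes tested, with 0 rises and a median of -0.24. The elongation factor gene GFM1 went from 1665 ± 20.1 to 1202 ± 67.9 (log2 change -0.47, and -0.31 and not past with its probe sets averaged), SLIRP, whose protein stabilises mitochondrial messenger RNAs, from 7177 ± 414 to 5379 ± 149 (-0.41), and MRRF, the ribosome recycling factor gene, from 597 ± 16.1 to 434 ± 34.4 (-0.45; SD, n = 3 each). That count was 2 without control replicate 2, and 3 without control replicate 1 or without Ecd siRNA replicate 1 or 3. MRRF lost its call without control replicate 2 or Ecd siRNA replicate 3 (adjusted p 0.0587 and 0.0512). Of 15 tested mitochondrial aminoacyl-tRNA synthetase genes, which charge transfer RNAs for the same ribosome, 3 fell (20%) and 0 rose (median -0.09). Those that fell were CARS2 (-0.43), NARS2 (-0.59) and MARS2 (-0.47). Each of these 3 lost its call when single arrays were left out, and the count was 0 without control replicate 1 or Ecd siRNA replicate 3 and 1 without control replicate 2 or 3 or Ecd siRNA replicate 1. With its probe sets averaged CARS2 was at 0.32 (limma adjusted p = 0.24).

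Genes that act on mitochondrial DNA and RNA fell in 6 of 14 tested members (42.9%), with a median of -0.26 and 0 rises. Over all genes tested 11.0% fell. TFAM, the packaging and transcription factor of mitochondrial DNA, fell from 1458 ± 104 to 827 ± 112 (SD, n = 3 each), or by 0.81 on the log2 scale (limma adjusted p = 0.000493). MGME1, a nuclease of mitochondrial DNA replication, was at -0.67 and PNPT1, an RNA-degrading exonuclease gene, at -0.55. The count was 3 without control replicate 1. Protein import genes fell in 9 of 17 (52.9%) with 0 rises and a median of -0.33. Among them were the small TIM chaperone genes TIMM13 (-0.59) and TIMM10 (-0.51) and the matrix co-chaperonin gene HSPE1 (-0.42). Of 8 tested regulators of nuclear genes for mitochondria, 1 fell (12.5%), a share near the 11.0% of all genes tested. It was PPARGC1B, a transcriptional coactivator gene, which went from 364 ± 39.8 to 158 ± 17.6 (SD, n = 3 each), a log2 change of -1.13 (limma adjusted p = 0.000835). ESRRA, a nuclear receptor gene, was at -0.23 (adjusted p = 0.1), NRF1 at -0.26 (adjusted p = 0.224), and GABPA at 0.10 (adjusted p = 0.634). With probe sets averaged, PPARGC1B (-0.35) and TIMM13 (-0.40) missed the threshold, as did TIMM10 (-0.22) where those without the suffix _s or _x were preferred.

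Cytosolic ribosomal protein genes encode the ribosome that makes the mitochondrial ribosomal proteins themselves. Of 58 tested, 3 fell (5.17%) and 0 rose, against 11.0% and 10.1% of all genes tested. The median was 0.04, and in 16 of 58 the change was negative, against 67 of 75 for the mitochondrial set and 48.9% of all genes. The 3 that fell were paralogs of core genes: RPL22L1, from 8282 ± 524 to 2308 ± 178 (SD, n = 3 each; log2 change -1.84), RPL39L (-1.12) and RPL26L1 (-0.32), which lost its call without control replicate 1 or 2 or Ecd siRNA replicate 3 (adjusted p 0.0557 to 0.0715). The sign of the median was not stable, as it was -0.01 after quantile normalization. Many cytosolic genes read near the top of the arrays, such as RPS16 with a control mean of 25705, where array maxima were 24573 to 27987. The mitochondrial set had mean signals of 576 to 6321. Whether signals of that height limit the changes that can be seen was not tested. Nuclear genes of oxidative phosphorylation, whose complexes other than complex II also hold subunits made by the mitochondrial ribosome, fell in 13 of 70 (18.6%) with 0 rises and a median of -0.05. Among them were ATP5MC1 of ATP synthase (-0.69), SDHA of complex II (-0.92) and NDUFV2 of complex I (-0.33). That count was 7 without control replicate 1 or Ecd siRNA replicate 2, 8 without control replicate 2, 5 with arrays set to a common median and 4 without the intensity trend. The differences between these groups and the mitochondrial ribosomal proteins were not tested.

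**Figure D4:**
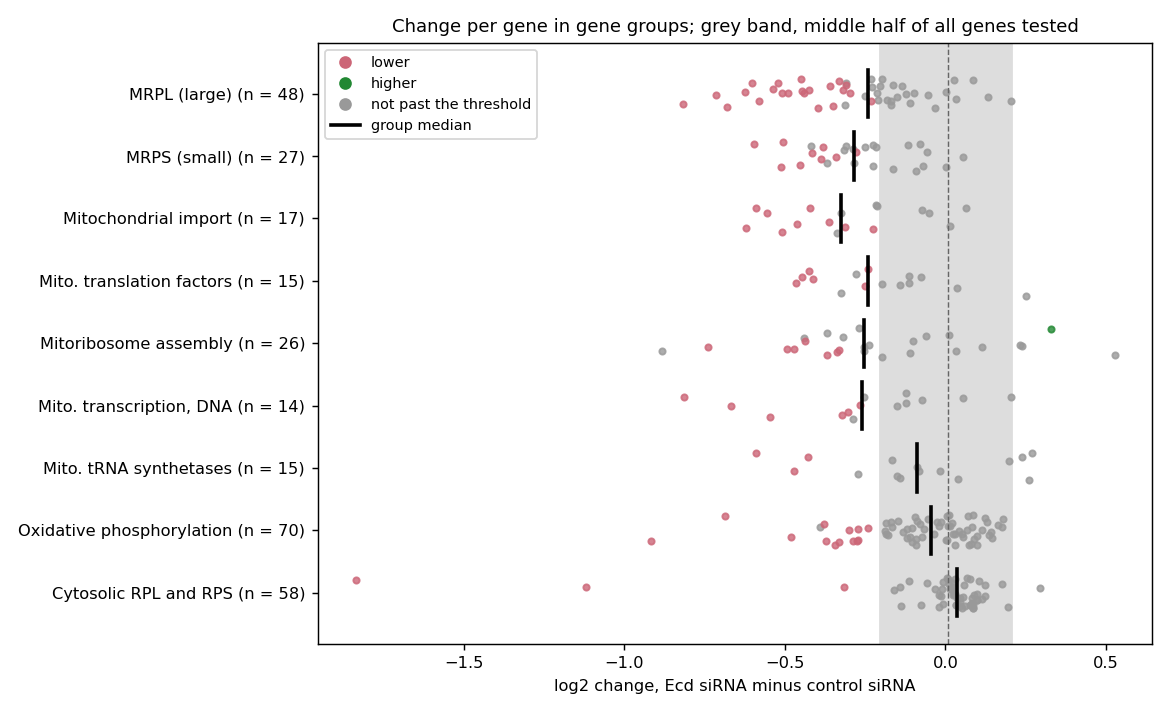
Log2 change of each gene (horizontal axis, Ecd siRNA minus control) in gene groups, with a black bar at the group's median, red for genes called lower and green for the 1 called higher. The grey band spans the middle 50% of all 14603 genes tested and the dashed line is their median; MRPL and MRPS medians lie at -0.24 and -0.28, and that of the cytosolic RPL and RPS genes at 0.04.

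The starts of these genes were searched for the letters of known promoter motifs. RefSeq promoter windows (GRCh38.p14, 250 bases before to 50 after a start) were found for 67 of the 75 genes. The ETS motif CCGGAAG, bound by the GABP factor among others, stood on either strand in 29 of 67 genes (43.3%), against 16.5% of 15843 protein-coding genes and 20.4% of those tested on the arrays. It was in 16 of 28 genes that fell and 13 of 39 that did not pass. Among all tested genes it was in 23.5% of those called lower and 20.0% of the others. The YY1 motif AAGATGGCG was in 12 of 67 (17.9%), against 3.21% of protein-coding genes and 4.27% of those tested, with 7 of 28 genes that fell and 5 of 39 that did not pass. The NRF1 motif, GCGCA and GCGC with any base between them, was in 9 of 67 (13.4%), against 9.67% and 12.2%, with 1 of 28 genes that fell and 8 of 39 that did not pass. The TATA box TATAAA was in 3 of 67 (4.48%), against 12.4% and 9.68%, with 1 of 28 and 2 of 39. These splits were not tested. Both strands were read, and no matches of different motifs overlapped in the 67 genes. A match describes these letters and does not show binding.

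The 250 bases before the start of 4 genes that fell and of MRPL36, which did not pass, show how these motifs are placed. Capitals mark motif letters, with CTTCCGG and CGCCATCTT the reverse complements of the ETS and YY1 motifs, and the NRF1 letters of MRPL36 are likewise a match on the opposite strand. The regions lie at chr17:81703117-81703366 on the plus strand (MRPL12), chr17:75904885-75905134 on the minus strand (MRPL38), chr2:27771469-27771718 on the plus strand (MRPL33), chr17:57850045-57850294 on the minus strand (MRPS23) and chr5:1799838-1800087 on the minus strand (MRPL36), and each is written 5′ to 3′ along its gene.
MRPL12: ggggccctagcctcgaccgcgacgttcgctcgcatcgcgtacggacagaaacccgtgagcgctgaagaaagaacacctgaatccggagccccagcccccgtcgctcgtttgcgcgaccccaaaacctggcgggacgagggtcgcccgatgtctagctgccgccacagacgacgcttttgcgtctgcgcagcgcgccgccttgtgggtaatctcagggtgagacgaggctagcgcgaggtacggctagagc
MRPL38: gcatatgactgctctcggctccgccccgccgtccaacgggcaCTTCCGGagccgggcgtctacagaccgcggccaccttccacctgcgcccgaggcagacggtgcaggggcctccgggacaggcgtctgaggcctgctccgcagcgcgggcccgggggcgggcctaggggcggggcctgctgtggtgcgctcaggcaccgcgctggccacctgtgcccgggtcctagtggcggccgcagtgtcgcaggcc
MRPL33: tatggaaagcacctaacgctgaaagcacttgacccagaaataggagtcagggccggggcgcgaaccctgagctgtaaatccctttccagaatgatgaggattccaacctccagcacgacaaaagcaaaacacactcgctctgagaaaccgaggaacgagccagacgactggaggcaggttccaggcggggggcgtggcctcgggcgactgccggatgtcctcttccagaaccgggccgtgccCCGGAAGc
MRPS23: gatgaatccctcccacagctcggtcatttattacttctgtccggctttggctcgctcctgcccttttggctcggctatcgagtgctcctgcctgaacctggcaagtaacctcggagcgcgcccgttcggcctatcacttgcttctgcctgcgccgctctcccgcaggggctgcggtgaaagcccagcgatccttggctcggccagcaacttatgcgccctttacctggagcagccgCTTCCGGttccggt
MRPL36: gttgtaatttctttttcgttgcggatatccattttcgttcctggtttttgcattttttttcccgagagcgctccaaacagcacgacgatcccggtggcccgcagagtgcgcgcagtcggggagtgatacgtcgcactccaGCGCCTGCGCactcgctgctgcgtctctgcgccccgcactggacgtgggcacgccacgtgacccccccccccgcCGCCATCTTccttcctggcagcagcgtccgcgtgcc
MRPL33 and MRPS23 carry the ETS letters within 14 bases of the start, and MRPL38 carries them 202 to 208 bases before it. MRPL38 also holds the YY1 letters 6 to 14 bases after the start, outside the printed stretch. MRPL12, with the largest fall, holds none of the 4 motifs in these 250 bases. MRPL36 holds the NRF1 and YY1 letters and no ETS letters.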

How the data were processed

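Total RNA of 6 cultures of 76N cells, 3 with control and 3 with Ecd siRNA, was measured on 1-colour Affymetrix arrays. Values deposited by the authors are intensities, here linear MAS5 signals per the submitters' processing notes, with version and scaling target not given in the sources used here. Each array had a trimmed mean signal of 499.978 to 500.25, so a change shared by all transcripts cannot be seen. No detection calls were used.

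Probe sets were named from GEO's platform annotation, and only those with 1 symbol were used. The brightest per gene was kept if its mean log2(signal + 16) exceeded that of the lower 40% of probe sets (a signal of 84.6). Groups were compared in limma 3.58.1 (lmFit, eBayes with intensity trend, R 4.3.3) without covariates over 14603 genes. The fit was run on simulated data in which genes varied independently, so that check does not cover genes that change together. Deviations of same-numbered cultures had correlations of -0.01, 0.08 and 0.15, and those of differently numbered cultures ran from -0.13 to 0.06. Whether the labels' replicate numbers pair the cultures was not tested. The number of arrays limits the precision, and p-values reflect only how these 6 cultures varied. Medians of gene groups are descriptions without a test.

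The members and lists were chosen with earlier results of these data known. Genes named were the 8 with the smallest adjusted p per subunit among those past the threshold, MRPS18A, MRPS18B, MRPS18C, MRPS30, genes whose probe sets differed in sign with a call, and in other lists the 3 called genes with the smallest adjusted p, or the 2 with the smallest p. Others complete a count, or show a role or the range, and were chosen after their values were seen, as were the motifs. Alternatives tried were other pseudocounts (1, 64), quantile and median scaling, no filter or the upper 40%, other probe set choices, no trend, a replicate block and each array left out. Genes read only by probe sets with several symbols were not analysed here beyond their listed values.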

Additional observations from a re-analysis of the deposited data

How the results depend on the processing

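Of the 75 genes, 13 (10 large and 3 small subunit) fell in the reported setting and under all 16 alternatives that keep 1 value per gene, and 57 were negative under all of them. Averaging all probe sets of a gene, dim ones included, gave the lowest count of these alternatives: 20 genes fell, 4 of them small subunit genes, whose median was -0.16, and MRPL12, MRPL38, MRPL39, MRPS26, MRPS27 and MRPS31 lost their calls. MRPS23 was then at 0.0016, MRPS30 at 0.026, FASTKD2 at 0.33, CARS2 at 0.32 and ITGB4 at -0.13. ITGB4, a basal marker, rose in the reported setting, from a mean signal of 11420 in control to 14030 in Ecd siRNA cultures. It was at -1.12 (limma adjusted p = 0.0155) where probe sets without the suffixes _s or _x (which may match several transcripts) were preferred. The small subunit median was then -0.23 and MRPL4 lost its call. With every probe set on its own 14 small subunit probe sets fell and 1 rose, the 1 rise among all 123 tested, while 2243 rose over all genes.

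With 1 array left out, 23 to 35 genes fell (16 to 25 large, 7 to 10 small subunit) and 0 rose, and the small subunit median ranged from -0.30 to -0.23. With 1 array left out, the counts of falls were 2 to 3 for cytosolic ribosomal proteins, 7 to 14 for oxidative phosphorylation, 0 to 1 for ribosomal proteins with other symbols, 4 to 7 for assembly, 2 to 5 for translation factors, 0 to 2 for tRNA synthetases, 3 to 6 for transcription and DNA, and 6 to 8 for import. Counts of rises were 0 to 1 for cytosolic ribosomal proteins, 0 to 2 for assembly and 0 to 1 for tRNA synthetases.

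With arrays set to a common median, MRPS27 and MRPS30 lost their calls among the named member genes (limma adjusted p = 0.0588 and 0.0633). Falls were then 5 in oxidative phosphorylation, 4 in assembly (0 rises) and 3 in transcription and DNA. Without the intensity trend they were 4 in oxidative phosphorylation, 3 in translation factors, 1 in tRNA synthetases, 3 in transcription and DNA and 5 in import, with 0 rises in assembly. Averaged probe sets gave 3 rises in cytosolic ribosomal proteins, 3 falls and 0 rises in assembly and 0 falls in regulators. Preferring probe sets without those suffixes gave 2 rises in cytosolic ribosomal proteins, 1 rise among proteins with other symbols, 4 falls in assembly and 5 in import. Every probe set on its own gave 5 falls and 4 rises in cytosolic ribosomal proteins, 1 rise among proteins with other symbols, 10 falls in transcription and DNA and 2 in regulators. The upper 40% filter gave 2 rises in assembly and 1 in tRNA synthetases, quantile normalization 1 rise in tRNA synthetases, and no filter 1 rise in regulators. The causes were not tested.

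With the replicate number as a block 36 genes fell (24 large, 12 small subunit). Whether shared numbers mark paired cultures was not tested. Every ECD value stayed past the threshold under its 16 alternatives.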

Other observations

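Probe sets annotated with several symbols were outside the comparison above. The probe set shared by MRPS24 and its readthrough transcript had signals of 5425, 5588 and 5085 in control and 5243, 4108.6 and 4296 in Ecd siRNA cultures. The one shared by MRPL53 and CCDC142 gave 1044.8, 1241.8 and 1189.1 against 998.8, 985.6 and 819.6. The one shared by MRPL51 and SPTLC1 gave 742, 811 and 631.6 against 553.1, 480.7 and 601.6. All 3 were lower on average after Ecd siRNA, at log2 changes of -0.24, -0.31 and -0.41, and none passed the threshold (limma adjusted p = 0.184, 0.126 and 0.094). These values come from a separate fit of every annotated probe set without the signal filter. They are not comparable with the adjusted p-values above. Which of the named transcripts each read cannot be told apart.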
